A study of Mus musculus with 6 samples.

Results

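miR-206 and miR-133b are muscle microRNAs that come from neighbouring hairpins of 1 locus on mouse chromosome 1. They were followed in small RNA sequenced from extracellular vesicles (called exosomes in the labels) of young and of old mouse muscle, with 3 libraries in each group. The 3p arms were found by their mature identifiers, MIMAT0000239 for miR-206-3p and MIMAT0000769 for miR-133b-3p. The opposite arms were the loci on the same strand within 80 bases, MIMAT0017004 for miR-206-5p and MIMAT0017083 for miR-133b-5p. These 4 loci are a small part of the 2110 mature miRNA loci in the count table, and 3 of them passed the filter on low counts, miR-206-5p being too rare. The labels give the groups only as young and old, with no genotype, strain, treatment, age, sex or named muscle. They do not say whether replicates came from separate mice, so p-values cover only library-to-library spread, part or all of which may be technical.

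A miRNA hairpin is cut by the nuclease Dicer into a duplex of a 5p and a 3p arm, of which 1 usually stays in the silencing complex while the other is degraded. The retained arm finds its targets mainly through its seed, bases 2 to 8. miR-206 is made almost only in skeletal muscle, is switched on by the myogenic factors MyoD and myogenin, rises when satellite cells (muscle stem cells) differentiate, and is known for its roles in muscle regeneration and repair of the neuromuscular junction. Its best studied targets include Pax7, a satellite cell factor, and Hdac4, a histone deacetylase. miR-133b belongs to the miR-133 family, which acts on myoblast proliferation and differentiation, and the long noncoding RNA that overlaps both hairpins, Lincmd1, is known as a decoy for miR-133 in differentiating myoblasts.

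The mature sequences are shown because the seed sets the 2 miRNAs apart although they come from 1 locus. They are from RefSeq (GRCm38, the assembly also called mm10), where all 4 loci matched by position, and are written 5′ to 3′ with the seed in capitals.
miR-206-5p: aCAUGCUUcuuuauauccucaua
miR-206-3p: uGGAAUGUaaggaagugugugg
miR-133b-5p: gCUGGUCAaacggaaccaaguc
miR-133b-3p: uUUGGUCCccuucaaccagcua
The abundant arms have different seeds, GGAAUGU in miR-206-3p and UUGGUCC in miR-133b-3p. The seed of miR-206-3p was also present in miR-6349 and miR-6382 of the RefSeq table, which had 0 counts here. That table held no entry for miR-1a or miR-133a, so this search for shared seeds was not complete. As background, miR-1a shares the seed of miR-206, and miR-133a is a near-identical paralog of miR-133b. Both 3p arms are set against these relatives as ratios further on.

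On GRCm38, miR-206-5p lies at chromosome 1, bases 20679017 to 20679039, and miR-206-3p at 20679055 to 20679076, both on the plus strand. miR-133b-5p lies at 20682797 to 20682818 and miR-133b-3p at 20682834 to 20682855, on the same strand. The hairpins Mir206 (20679010 to 20679082) and Mir133b (20682769 to 20682887) are separated by 3686 bases. In GENCODE M21 both lie in the lincRNA Gm28653, which RefSeq calls Lincmd1. Its longer transcript, Gm28653-202 (20669882 to 20682958), has 3 exons, with Mir133b inside exon 3 and Mir206 in the intron before it. A second, single-exon transcript, Gm28653-201 (20679023 to 20684298), holds miR-206-3p and both arms of miR-133b and starts inside miR-206-5p. None of the 4 loci overlaps another listed locus, which bears on the counting, since 104 of 106 loci that overlap one on the opposite strand stood at 0.

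**Figure D1:**
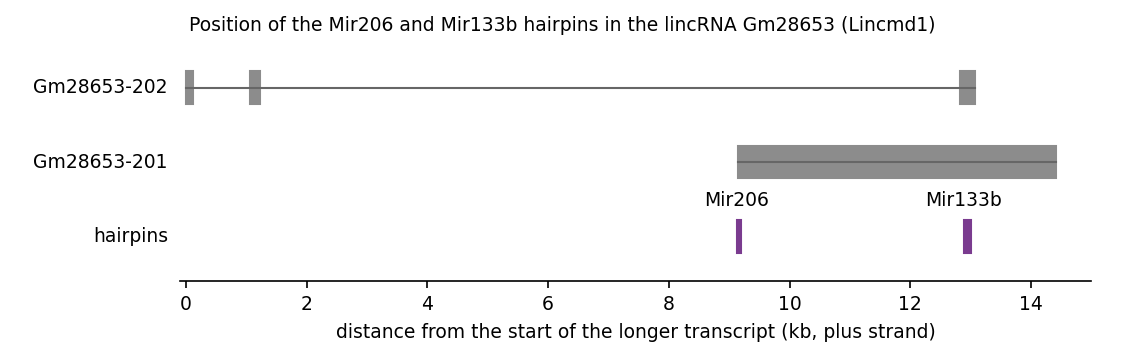
Position of the 2 hairpins (purple) on the transcripts of Gm28653 (grey boxes are exons, lines introns), in kilobases from the start of the longer transcript on the plus strand. Mir206 falls in the last intron of the 3-exon transcript and Mir133b in its last exon, and the single-exon transcript runs over nearly all of both.

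The hairpins are printed with both mature arms in capitals, because the arm ratios below describe which side of each stem was counted.
Mir206: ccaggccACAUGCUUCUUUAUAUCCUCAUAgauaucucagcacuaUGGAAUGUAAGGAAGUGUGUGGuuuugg
Mir133b: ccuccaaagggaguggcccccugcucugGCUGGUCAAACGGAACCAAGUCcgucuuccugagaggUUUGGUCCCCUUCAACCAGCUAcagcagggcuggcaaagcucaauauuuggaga
Mir206 is 73 bases long and Mir133b 119, and in each 15 bases lie between the arms. The folds computed from these sequences with RNAfold had minimum free energies of -31.7 kcal/mol for Mir206 and -58.8 kcal/mol for Mir133b. In the Mir206 fold, 21 of 22 bases of the 3p arm were paired, 19 of them with the 5p arm. For Mir133b these were 18 of 22 and 16. The 5p arm of miR-206 had a GC content of 30.4%, against 45.5% in its 3p arm, 54.5% in miR-133b-5p and 50.0% in miR-133b-3p.

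Library totals were 1459826, 1706396 and 1523331 counts in young replicates 1, 2 and 3 and 904892, 1417733 and 1383960 in old replicates 1, 2 and 3. Old replicate 1 stood apart, with a chi-square per degree of freedom of 176.1 and 280.9 against the other old libraries, which had 30.25 between them, so results that rest on it are given with and without it. The 6 striated muscle marker miRNAs of a list, 5 of them with counts, summed to 4.90% to 6.19% of the counts in young and 9.83%, 5.76% and 4.53% in old replicates 1, 2 and 3, and most of that sum was miR-206-3p itself. The vesicle samples also held markers of other cells. The 3 red blood cell miRNAs summed to 4.03% to 4.36% in young and 4.13% to 4.52% in old, and the 4 smooth muscle and fibroblast miRNAs to 2.81% to 3.11% and 3.59% to 4.36%. The 3 counted leukocyte markers of 4 summed to 0.0481% to 0.0517% and 0.0483% to 0.0601%, and the 1 counted nerve marker of 2 to 0.00451% to 0.00664% and 0.00751% to 0.0103%. Listed at 0 in all libraries were the muscle marker miR-486-5p, both endothelial markers (miR-126a-3p and miR-126a-5p), miR-142a-3p, miR-9-5p and the liver marker miR-122-5p. All loci of these markers overlap a locus on the opposite strand, so their zeros do not show that the miRNAs were absent, and these markers could not be checked. For the sum of the smooth muscle and fibroblast list and for the nerve marker every old library was above every young one. On the scaled counts used below, 14.1% of all tested loci had that ordering. On that scale the list members miR-143-3p, miR-145a-5p and miR-199a-3p had higher means in old. Its member miR-214-3p went the other way, with every old library below every young one. The part of these cell types in the results was not tested.

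miR-206-3p was among the most abundant miRNAs of the vesicles in both groups, and its level did not pass the test between old and young. It had 70220, 76501 and 86430 counts in young replicates 1, 2 and 3 and 78602, 70455 and 50607 in old replicates 1, 2 and 3. That was 4.81%, 4.48% and 5.67% of the young libraries and 8.69%, 4.97% and 3.66% of the old ones. Old replicate 1 was thus the highest of all 6 and old replicate 3 the lowest, so the old libraries enclosed the young ones. Among the loci that could be counted it had rank 2 in 5 libraries and rank 3 in old replicate 3.

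On the CPM scale (counts per 1000000 counts of library size, scaled by edgeR's TMM method), miR-206-3p stood at 48409, 46023 and 55441 in young and 79255, 50451 and 39284 in old replicates 1, 2 and 3. The means were 49958 ± 4896 and 56330 ± 20624 (SD, n = 3 each). The log2 fold change, old over young, was 0.17 ± 0.22 (SE), or 1.13-fold, with an adjusted p of 0.731 by edgeR's quasi-likelihood test over the 347 tested loci. Without old replicate 1 the log2 fold change was -0.13 (adjusted p = 0.529 by the same test), so its sign rested on that library. Only miR-21a-5p, with 512229 and 462858 CPM in young and old, was more abundant on average. The next locus, the red blood cell miRNA miR-451a, had 41976 ± 1246 and 43794 ± 3918 CPM, and its range over 6 libraries, 40543 to 48304, overlapped that of miR-206-3p, 39284 to 79255.

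miR-133b-3p was far rarer, and all 3 old libraries lay above all 3 young ones, though the difference did not pass the adjusted test. It had 942, 839 and 952 counts in young replicates 1, 2 and 3 and 728, 1021 and 1082 in old replicates 1, 2 and 3. On the CPM scale these were 649, 505 and 611 in young and 734, 731 and 840 in old, with means of 588 ± 74.9 and 768 ± 62.0 (SD, n = 3 each). The lowest old library was above the highest young one, so the groups did not overlap. The log2 fold change was 0.39 ± 0.17 (SE), or 1.31-fold, with an unadjusted p of 0.0382 and an adjusted p of 0.187 by edgeR's quasi-likelihood test. Of all 347 tested loci, 14.1% had old libraries entirely above the young ones and 27.1% had groups that did not overlap in either direction, so this ordering was common in the table. Without old replicate 1 the log2 fold change was 0.44 and the adjusted p 0.0628 by the same test.

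In rank, miR-133b-3p was 83, 87 and 84 in the young libraries and 76, 74 and 73 in the old ones. By mean CPM it was 78th, between miR-425-5p (range over the libraries 624 to 757) and miR-872-3p (388 to 818), both of which overlapped its own range of 505 to 840.

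miR-133b-5p, the opposite arm, had 23, 8 and 18 counts in young and 19, 10 and 11 in old replicates 1, 2 and 3, or 10.7 ± 5.57 and 11.6 ± 6.56 CPM (SD, n = 3 each). Its log2 fold change was 0.08 ± 0.53 (SE), with an adjusted p of 0.944 by edgeR's quasi-likelihood test. At this depth a difference of that size was not detectable. miR-206-5p was nearly absent, with 1, 1 and 0 counts in young and 0, 0 and 3 in old, and was not tested.

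None of the 3 tested loci was called at an adjusted p under 0.05. DESeq2 also called 0. Over the whole table edgeR called 15 of 347 loci, or 4.32%, with 3.46% higher and 0.865% lower in old. Where counts of vesicle RNA differ, fewer vesicles from muscle fibres and less of the miRNA in each vesicle cannot be told apart.

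**Figure D2:**
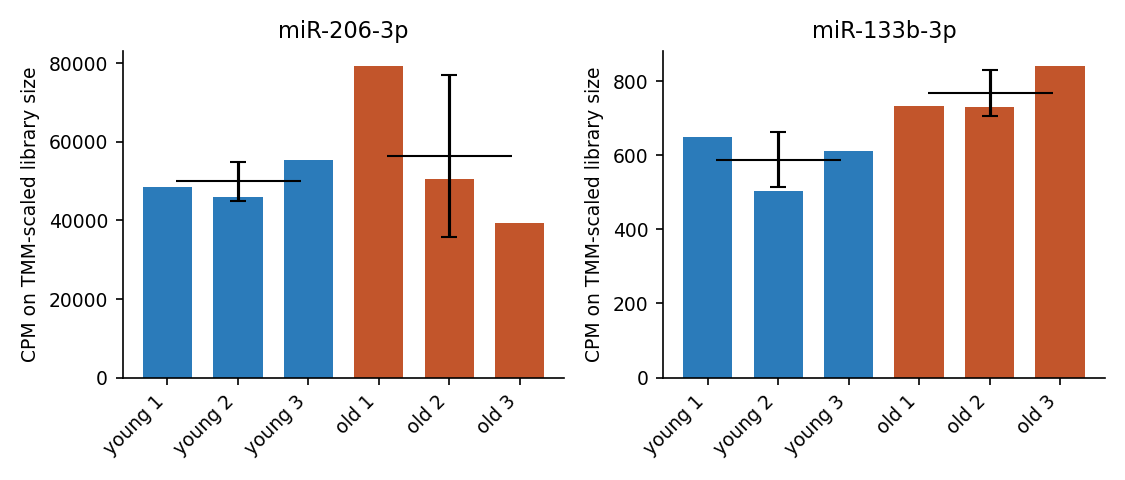
CPM on TMM-scaled library sizes (y axis) of miR-206-3p and miR-133b-3p in each library (bars; blue young, orange old), with the group mean (line) and SD (whisker, n = 3 each). For miR-206-3p the old libraries run from 39284 to 79255 and enclose the young ones, while for miR-133b-3p the lowest old library, at 731, lies above the highest young one, at 649.

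The arms of the 2 hairpins were compared next, as the share of 5p among the counts of both arms in a library, which needs no library total. Intervals are exact (Clopper-Pearson, 95%) and, like the floors, cover counting error only, since PCR copies of a molecule are not separate observations. Mir206 was counted almost only from its 3p arm. In all 6 libraries together there were 432815 counts of miR-206-3p and 5 of miR-206-5p, a 5p share of 0.00116% (interval 0.000375% to 0.00270%) and 86563 counts of 3p for each of 5p. In the 3 libraries without a 5p count, the limit that 3 counts would set was a 5p share of 0.00347% in young replicate 3, 0.00382% in old replicate 1 and 0.00426% in old replicate 2. Old replicate 3, with 3 counts, stood highest at 0.00593% (interval 0.00122% to 0.0173%).

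Mir133b kept a measurable 5p arm. Its 5p share was 2.38%, 0.945% and 1.86% in young replicates 1, 2 and 3 and 2.54%, 0.970% and 1.01% in old replicates 1, 2 and 3. Both groups thus held libraries near 1% and libraries near or above 2%, and the highest, old replicate 1, had an interval of 1.54% to 3.94%, against 0.409% to 1.85% in the lowest, young replicate 2. Over all libraries 89 of 5653 counts were 5p, or 1.57% (1.27% to 1.93%), and the 3p to 5p ratio was 62.5, ranging from 38.3 to 105 by library.

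The 3p share of Mir133b was 98.27% ± 0.728 (SD, n = 3) over the young libraries and 98.49% ± 0.898 (SD, n = 3) over the old ones, a difference of 0.22 percentage points (two-sided exact permutation p = 1.0). For Mir206 the difference, old less young, was -0.0011 percentage points (exact permutation p = 1.0). The smallest p that 3 against 3 libraries allow is 0.1, so no such test could pass 0.05. The groups overlapped in both shares.

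Among 124 hairpins with both arms listed, at least 1000 counts and no overlapping locus, the median share of the minor arm was 0.825%. Mir206 was the 8th lowest of these, behind 7 hairpins whose minor arm stood at 0, and Mir133b was the 77th. Mir206 therefore held the smallest nonzero minor arm share of the set, while Mir133b lay above the median. The place of Mir206 rests on 5 counts, with an interval of 0.000375% to 0.00270%. Mirlet7c-1 at 0.00137% and Mir34a at 0.00250%, from 2 counts each, and Mir143 at 0.00251%, from 4, lie inside that interval. The order among them is thus not settled. The 7 hairpins at 0 had at most 38648 counts each, against 432820 for Mir206, so their zeros do not show a smaller share. The dominant 3p arm put both with the smaller group, as 44 of the 124 hairpins had more 3p than 5p counts.

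**Figure D3:**
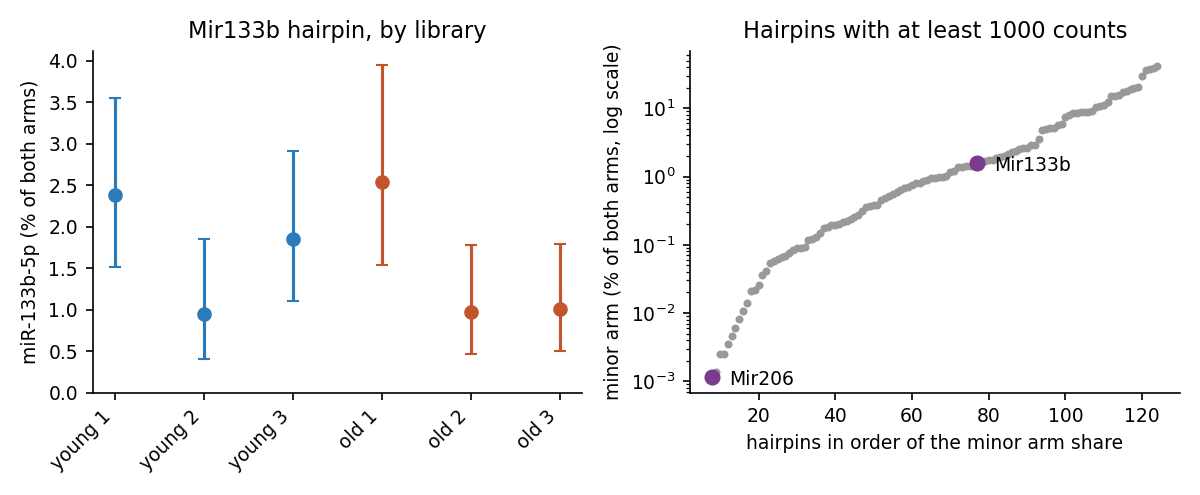
Left, miR-133b-5p as a percentage of the counts of both arms in each library, with exact 95% intervals (blue young, orange old). Right, the share of the minor arm (log axis) for hairpins with at least 1000 counts in rank order, with the 7 hairpins at 0 not drawn; Mir206, at 0.00116%, is the lowest point and Mir133b, at 1.57%, lies above the median of 0.825%.

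Because the hairpins lie in 1 locus, the levels of their 3p arms were compared across libraries. No shared movement was detected. On log2 CPM, Pearson's r over 6 libraries was 0.016 (exact permutation p = 0.964) and Spearman's rho was -0.029 (exact permutation p = 1.0), for 1 relation tested. Old replicates 1 and 3 show it most plainly: miR-206-3p was 79255 CPM in the first and 39284 in the other, while miR-133b-3p was 734 and 840. The libraries farthest from the median of miR-206-3p were these same old replicates, and r without both was 0.42 (n = 4, exact permutation p = 0.583).

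The coefficient itself was not stable in sign. Leaving out old replicate 3 gave 0.59, leaving out old replicate 1, the library that stood apart, gave -0.44, and raw library totals gave 0.30. With each group centred on its own mean it was -0.26 (exact permutation p = 0.664). Within the young libraries r was 0.53 and within the old ones -0.76, values from 3 libraries each that are given with no test.

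As a description of other neighbours, 23 pairs of single-copy miRNAs from hairpins on 1 strand less than 10000 bases apart, each at 100 CPM or more, were listed after the value for miR-206 and miR-133b had been seen, that pair being 1 of the 23. Their r over the same 6 libraries had a median of 0.068 and ran from -0.958 to 0.924, and 9 of the 23 lay below that of miR-206-3p and miR-133b-3p. Where the main arm of a hairpin has more than 1 copy, its minor arm was used. Such were let-7c-2-3p (r = -0.876 with let-7b-5p) and let-7a-1-3p (r = -0.778 with let-7d-5p), both among these 9. The points share libraries and scaling, and no test was made.

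**Figure D4:**
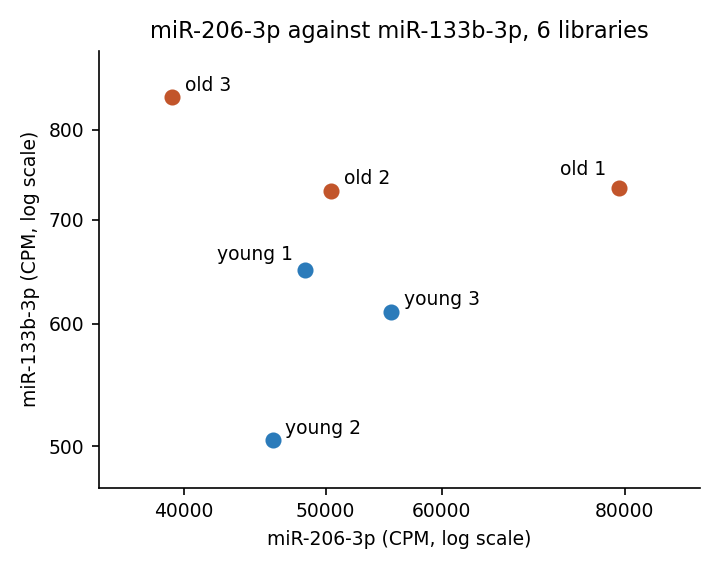
CPM of miR-206-3p (x axis) against CPM of miR-133b-3p (y axis), both on log scales, 1 point per library (blue young, orange old). The points follow no line (r = 0.016): old replicate 1 is highest on the x axis and old replicate 3 highest on the y axis and lowest on the x axis.

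The ratio of the 2 members differed widely between libraries. There were 74.5, 91.2 and 90.8 counts of miR-206-3p for each count of miR-133b-3p in young replicates 1, 2 and 3 and 107.97, 69.0 and 46.8 in old replicates 1, 2 and 3. The old libraries again enclosed the young ones, with the highest and lowest ratios 2.31-fold apart. The exact intervals of old replicates 1 and 3, 100.4 to 116.3 and 44.04 to 49.72 did not overlap, which concerns counting error only. Means were 85.5 ± 9.49 and 74.6 ± 31.0 (SD, n = 3 each), and the difference in log2 ratio, old less young, was -0.27 (exact permutation p = 0.6, and 1.0 after Benjamini-Hochberg adjustment over the 5 differences tested). This difference became -0.58 when old replicate 1 was left out and 0.020 when old replicate 3 was.

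Each member was then set against its closest relative. miR-1a, which carries the seed of miR-206, is shared by heart and skeletal muscle and promotes myoblast differentiation. Only 1 of the 2 loci of miR-1a-3p, in the hairpin Mir1a-1, could be counted, since the other overlaps miR-1b on the opposite strand and stood at 0. If reads of miR-1a-3p were lost there, the ratios below are too high, by an amount that the counts at that locus do not give. Some identical copies elsewhere had similar totals, with 13995 and 14084 counts at the loci of miR-133a-3p and 46249 and 38648 at those of miR-196a-5p. Others did not: miR-92a-3p had a young mean of 2209 CPM at Mir92-1 alone and 2279 CPM with its copies summed. With a split like that of miR-133a-3p, about as many reads of miR-1a-3p would be missing as were counted at Mir1a-1, which was not tested. There were 29.8, 30.6 and 26.0 counts of miR-206-3p for each counted at Mir1a-1 in young replicates 1, 2 and 3, and 23.1, 19.0 and 15.5 in old replicates 1, 2 and 3. Every old library was below every young one, with means of 28.8 ± 2.47 and 19.2 ± 3.78 (SD, n = 3 each). The difference in log2 ratio was -0.60, or 0.659-fold, with an exact permutation p of 0.1, the smallest possible, and 0.25 after adjustment over the 5 differences. The fitted levels behind it were 1753 ± 334 CPM of miR-1a-3p in young and 2876 ± 490 in old (1.64-fold, edgeR adjusted p = 0.0285), beside the 1.13-fold of miR-206-3p. The call for miR-1a-3p was lost with raw totals (adjusted p = 0.108), with the replicate number as a block (0.112) and without any 1 of young replicates 1, 2 and 3 or old replicate 2.

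miR-133a, the paralog of miR-133b made from other loci, is common to heart and skeletal muscle. Counts of miR-133b-3p were 26.1%, 23.7% and 28.6% of those of miR-133a-3p (both loci summed) in young replicates 1, 2 and 3 and 13.2%, 19.5% and 15.8% in old replicates 1, 2 and 3. The groups did not overlap here either, and old replicate 1 was the lowest. Means were 26.1% ± 2.49 and 16.2% ± 3.17 (SD, n = 3 each), a difference in log2 ratio of -0.71, or 0.612-fold (exact permutation p = 0.1, the smallest possible, 0.25 after adjustment over the 5 differences). miR-133a-3p rose 2.16-fold and 2.17-fold at its loci (adjusted p = 0.0009 at each by edgeR's quasi-likelihood test), against 1.31-fold for miR-133b-3p. The loci of miR-133a-3p give 1 mature miRNA and are not separate evidence. Reads of near-identical paralogs can be exchanged in alignment, and how the aligner placed them is not given in the sources used here, so the split between miR-133b and miR-133a is uncertain to that extent.

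Both ratios kept their direction when each library was left out in turn, at -0.74 to -0.46 for miR-206-3p to miR-1a-3p and -0.85 to -0.57 for miR-133b-3p to miR-133a-3p on the log2 scale.

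**Figure D5:**
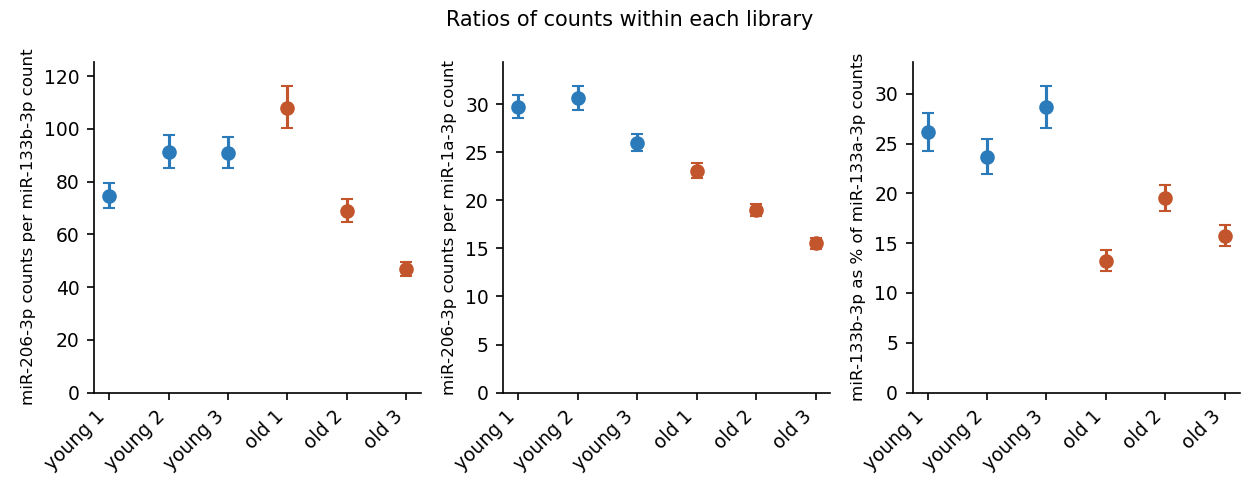
Ratios of counts within each library with exact 95% intervals (blue young, orange old; all axes start at 0): miR-206-3p per miR-133b-3p, miR-206-3p per miR-1a-3p, and miR-133b-3p as a percentage of miR-133a-3p. In the first the old libraries (46.8 to 107.97) enclose the young ones, and in the other panels every old library lies below every young one.

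Across the 6 libraries miR-133b-3p had higher correlations with the other muscle miRNAs than miR-206-3p had, which is a description without a test. Its r on log2 CPM was 0.87 with miR-133a-3p, 0.89 with the slow-fibre and heart miRNA miR-499-5p and 0.75 with miR-1a-3p. Without old replicate 1 these were 0.92, 0.88 and 0.82. For miR-206-3p they were 0.24, 0.15 and 0.56, and without old replicate 1 they turned to -0.69, -0.36 and -0.098. Between miR-1a-3p and miR-133a-3p, 0.85 was found. The values share the libraries and their scaling, and all 3 of these other miRNAs rose between the groups. Reads exchanged in alignment between miR-133b-3p and its near-identical paralog miR-133a-3p could raise the r between them. That holds here and for the most alike patterns below, and it was not tested.

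By the same measure, over 140 mature miRNAs with identical copies summed, the patterns most like that of miR-206-3p were those of miR-125b-1-3p (r = 0.994), let-7a-5p (0.968), miR-30d-5p (0.929), let-7d-5p (0.917) and let-7f-5p (0.894). Without old replicate 1 the r of these 5 was 0.772 to 0.995. None of these 5 was called between the groups, with adjusted p of 0.790 to 0.982 by edgeR, so the likeness lay in the single libraries. Those most like miR-133b-3p were miR-378c (0.886), miR-499-5p (0.878), miR-6240 (0.869), miR-133a-3p (0.860) and miR-378d (0.842), with 0.837 to 0.915 when old replicate 1 was left out. Of these, 4 rose with an adjusted p of 0.000728 by edgeR, and miR-378c, at 375 and 543 CPM in young and old, did not pass (adjusted p = 0.0852).

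The list of striated muscle miRNAs had 11 names, of which 10 were matched, at 13 loci, 3 of them at 0 (miR-486-5p, miR-1b-3p and the locus of miR-1a-3p in Mir1a-2), all 3 overlapping a locus on the opposite strand. Of the 6 loci tested, which stand for 5 mature miRNAs, 4 rose, 0 fell and 2 did not pass, against 3.46% of all tested loci called higher. The 4 that rose were miR-1a-3p, both loci of miR-133a-3p, and miR-499-5p (767 ± 72.1 to 1532 ± 98.0 CPM, SD, n = 3 each, 2.00-fold, edgeR adjusted p = 0.0009), and the 2 that did not pass were miR-206-3p and miR-133b-3p. The median log2 fold change of the 6 was 0.86, beside 0.038 over all tested loci. Of the 6, 5 had groups that did not overlap, beside 27.1% of all tested loci in either direction and 14.1% with old above young. Both loci of miR-133a-3p are among these 5 and are not separate evidence. The number that rose was 3 to 4 under the alternatives, and 4 without old replicate 1. That the calls fell on the relatives and not on the members was not itself tested beyond the ratios above.

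Within the list, miR-206-3p made up most of the counts that were assigned. Its share may be inflated, since the 3 listed loci at 0 overlap others and their reads would not be counted. It was 89.7%, 90.5% and 90.7% of them in young replicates 1, 2 and 3 and 87.7%, 85.2% and 79.3% in old replicates 1, 2 and 3. All old libraries were below all young ones (90.3% ± 0.521 and 84.1% ± 4.28, SD, n = 3 each), a description with no test. miR-133b-3p was 1.20%, 0.993% and 0.999% of the list in young and 0.812%, 1.23% and 1.70% in old, with the young values inside the old range. The other listed miRNAs, without miR-206-3p, took 0.535% ± 0.0586 of all counts in young and 1.01% ± 0.187 in old.

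A further list held 26 miRNAs named in work on myoblasts, satellite cells and regeneration, and did not include the members. Of its 27 tested loci, which stand for 23 mature miRNAs, 0 rose, 2 fell and 25 did not pass by edgeR, with a median log2 fold change of 0.073, and 0.865% of all tested loci were called lower. miR-351-5p, of the miR-322 and miR-503 cluster that is active in differentiating myoblasts, fell from 998 ± 121 to 532 ± 85.1 CPM (log2 fold change -0.91, edgeR adjusted p = 0.0060, n = 3 each). miR-155-5p, known from inflammation and from regenerating muscle, fell from 713 ± 111 to 407 ± 25.9 CPM (log2 fold change -0.81, edgeR adjusted p = 0.0135, n = 3 each). The most abundant of the tested loci were miR-378a-3p at 18955 and 24977 CPM in young and old (edgeR adjusted p = 0.155), miR-27b-3p at 12956 and 15954 (0.299) and miR-27a-3p at 11769 and 15093 (0.233). All were less abundant than miR-206-3p in both groups. This order leaves out miR-24-3p, miR-431-5p and miR-489-3p, which were not tested. Of the 31 loci of the list, 3 stood at 0, which does not show that their miRNAs were absent. The number that fell was 0 without old replicate 2. It was 1 with the replicate number as a block, without young replicate 1 and without young replicate 3.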

How the data were processed

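Small RNA of vesicles from 3 young and 3 old mouse muscle samples was analysed, grouped by title. The authors deposited raw read counts per mature miRNA locus, made with featureCounts 2.0.6 per the file headers, with no option for strand, multi-mapping or overlapping features. Alignment was with BWA to mm10, per the submitters' processing notes. Its version and settings, and how adapters were trimmed, are not given in the sources used. Loci were named by position from RefSeq and GENCODE M21.

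Old and young were compared with edgeR 4.0.16 (R 4.3.3, quasi-likelihood, TMM, filterByExpr with minimum count 10 and minimum total 15, two-sided, Benjamini-Hochberg over 347 loci, threshold 0.05), with DESeq2 1.42.0 as an alternative. The edgeR fit was tried on simulated counts with larger changes than those of the members and no outlying library. That trial therefore does not bear on effects of their size. Ratios, arm shares and the correlation used exact permutation tests (scipy 1.17.1), and folds used ViennaRNA 2.7.2. Totals of 904892 to 1706396 counts set the precision. Named beside the members were passing and the 3 most abundant tested members of the lists, and the 5 miRNAs most alike among those of at least 100 CPM. The neighbouring pairs and the miRNAs of adjacent rank were chosen after values were seen. Members and lists were chosen with earlier results of these data known.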

Additional observations from a re-analysis of the deposited data

How the results depend on the processing

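The count of loci called was 15, and 11 to 21 under RLE size factors, raw totals, scaling without miR-21a-5p, no filter on low counts, DESeq2 and identical copies summed. With the replicate number as a block it was 6 (miR-206-3p log2 fold change 0.12, miR-133b-3p 0.39 with adjusted p = 0.339). Same-numbered libraries showed no tendency to deviate together (r of -0.134, 0.024 and -0.146, and 0 of 6 libraries correlated best with their own number). With 3 libraries in each group this check cannot exclude that the numbers pair them. Leaving out each library in turn gave 5 (without old replicate 2) to 45 calls (without old replicate 1), with 6, 8 and 8 without young replicates 1, 2 and 3 and 29 without old replicate 3; the cause was not tested. None of the 13 alternatives called miR-206-3p (log2 fold change -0.13 to 0.35, adjusted p 0.398 to 0.888) or miR-133b-3p (0.29 to 0.44, 0.0628 to 0.578). With libraries left out, the log2 ratio of miR-206-3p to miR-133b-3p differed by -0.58 to 0.020, the 3p share of Mir206 by -0.00206 to 0.00091 percentage points and that of Mir133b by -0.107 to 0.740, so these signs are not settled. The correlation was -0.029 by rank, -0.44 on totals without miR-21a-5p, -0.26 with groups centred, and -0.44 to 0.59 with libraries left out. Of 87 alternatives for list counts and listed miRNAs, chosen after seeing the data, 72 kept direction and side of the threshold. Depth limits the 5p arms most, with 5 and 89 counts in all.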
